A study of Mus musculus with 3 samples.

Results

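Microglia were taken from immune-enriched cell suspensions of metastasis-bearing mouse brains by 6 microglial identity transcripts, P2ry12, Tmem119, Fcrls, Gpr34, Sall1 and Siglech. A barcode (the sequence that marks 1 droplet) was called a microglial cell when at least 3 of these genes had at least 1 UMI, a unique transcript molecule. The barcodes considered had at least 500 genes, at most 15% mitochondrial UMIs and 1000 to 30000 gene UMIs. Their leading sample hashtag also held at least 70% of the sample hashtag counts. By this rule 506 of 5282 barcodes were microglia, or 9.58% (exact Clopper-Pearson 95% interval 8.80 to 10.4%, for counting error only). The cells were thus chosen by their measured counts of these 6 genes, whose levels are given here as a description with no test.

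The brains came from female C57Bl/6 mice aged 2 to 3 months, and all of them bore brain metastases grown from carotid injection of E0771, a murine breast cancer cell line. Some mice received antibodies against VISTA and PD-L1 every other day from day 3 after injection, and others did not. Brains were perfused with PBS and digested, immune cells were enriched on a Percoll gradient, and 8 suspensions were each stained with 35 tagged antibodies and 1 hashtag antibody before being pooled. The 3 deposited libraries hold the transcripts, the antibody tags and the hashtags of the same 12908 barcodes, with 0 barcodes listed more than once. No source used here says which hashtag was given to which treatment, so treated and untreated brains are not compared, and brains without metastases were not analysed here. The labels of the 3 libraries differ on how many hemispheres made up a sample, and whether each hashtag was a separate animal is not stated. All p-values therefore measure the spread between hashtag samples, which may be technical.

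Microglia are the resident macrophages of the brain parenchyma. They are seeded before birth and renew themselves locally, and their identity is kept by signals from neighbouring cells, transforming growth factor beta among them. In the healthy brain they sense purines through P2Y receptors and neuronal fractalkine through CX3CR1, clear debris and tag synapses with complement, and they carry less of the leukocyte antigen CD45 on their surface than macrophages that arise from blood monocytes. In metastases they are mixed with such monocyte-derived macrophages, and transcripts and surface antibodies are the usual means of telling the populations apart.

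The surface readout rests on 15-base barcodes, each joined to 1 antibody and read as a tag count beside the transcripts. The barcodes of the antibodies on which the surface results turn are shown here, in capitals throughout because the whole sequence identifies the antibody. CX3CR1 is the fractalkine receptor, CD45 the pan-leukocyte antigen, CD44 a hyaluronan receptor and I-A-I-E the mouse MHC class II proteins. CD11c and CD11b are integrin subunits, CD64 is a high-affinity Fc receptor, and F4-80 and TMEM119 are surface proteins of macrophages and microglia. PD-L1 is the checkpoint ligand targeted by the treatment.
CX3CR1: CACTCTCAGTCCTAT
CD45: TGGCTATGGAGCAGA
CD44: TGGCTTCAGGTCCTA
I-A-I-E: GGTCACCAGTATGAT
CD11c: GTTATGGACGCTTGC
CD11b: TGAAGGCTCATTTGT
CD64: AGCAATTAACGGGAG
F4-80: TTAACTTCAGCCCGT
TMEM119: TCGAACATTTCCAGG
Siglec-H: CCGCACCTACATTAG
PD-L1: TCGATTCCACCAACT

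The 6 gate genes differed in how widely they were detected. In build GRCm38.p6, P2ry12, an ADP receptor, lies at chr3:59216271-59262985, and Tmem119, a bone and microglial membrane protein, at chr5:113793729-113800396. Fcrls, an Fc receptor-like scavenger receptor, lies at chr3:87250736-87263765, and Gpr34, a lysophosphatidylserine receptor, at chrX:13622650-13640859. Sall1, a zinc finger transcription factor that maintains microglial identity, lies at chr8:89027242-89044162, and Siglech, a sialic acid-binding lectin, at chr7:55768154-55779448. Tmem119 had a UMI in 95.8% of microglia, Fcrls in 95.1%, P2ry12 in 93.3%, Siglech in 92.3%, Gpr34 in 87.9% and Sall1 in 66.2%. When each cell was thinned to 1000 UMIs these shares were 43.5, 49.2, 48.0, 50.4, 38.1 and 14.8%, so Sall1 was the least often seen at either depth. Among 1128 T cell barcodes, which should lack these genes, the shares ran from 0.177% for Sall1 to 2.39% for P2ry12, at a median of 5617.5 UMIs against 8882.5 in microglia. In samples 3, 5, 6, 7 and 8 P2ry12 was at 306, 742, 496, 904 and 744 CPM (the depth-scaled count of the summed cells) and Sall1 at 81.0, 159, 123, 169 and 133. Sample 3 was the lowest and sample 7 the highest for each of the 6 genes.

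Most microglia passed the gate with room to spare. Of the 506 cells, 306 had all 6 genes, 103 had 5, 43 had 4 and 54 had 3, while 143 barcodes just outside the threshold had 2 genes and 623 had 1. The cells just inside and just outside the threshold were alike in several readouts. Those with 3 gate genes carried a median of 1096.5 CD45 tags and those with 2 carried 1642, against 253, 144 and 143 in cells with 4, 5 and 6 genes. Apoe, an apolipoprotein made by activated macrophages, was at 16309 CPM with 3 genes and 10556 with 2, but at 2611 with all 6. Ms4a7, a marker of macrophages outside the parenchyma, was at 1375 and 1199 CPM with 3 and 2 genes and at 92.3 with all 6. Cx3cr1 moved the other way, from 49.3 CPM with 0 gate genes to 487 with 3 and 2372 with 6. The summed level of 28 further homeostatic microglial genes went from 4030 CPM with 0 gate genes to 46554 with 6, and that of 10 monocyte/macrophage markers was 7485 with 3 and 2051 with 6. The cells with 3 or 4 gate genes thus carried more CD45 and more macrophage RNA than the rest, and their part in the results below was not tested apart from repeating each count with cells of at least 5 gate genes. That setting moves the cells with 3 or 4 genes into all other barcodes and leaves the macrophages as they are.

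**Figure D1:**
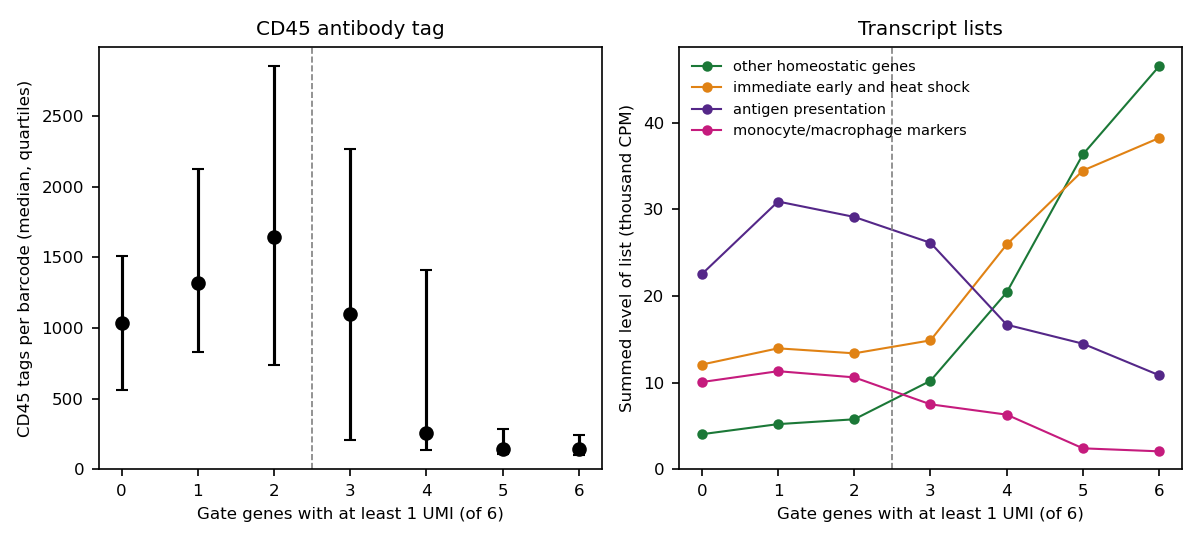
CD45 antibody tags per barcode (left, median with quartiles) and summed CPM of 4 gene lists (right) against the number of gate genes with a UMI, for all 5282 barcodes, with the gate threshold as a dashed line. CD45 tags fall from a median of 1096.5 at 3 genes to 143 at 6, while the homeostatic list climbs to 46554 CPM.

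Microglia came from every hashtag sample in unequal numbers. Hashtag samples 1 to 8 held 6, 19, 38, 16, 124, 115, 94 and 94 microglia, which were 15.8, 4.55, 8.98, 12.4, 8.22, 15.7, 12.2 and 7.45% of their barcodes. The share was highest in samples 1 and 6 and lowest in sample 2, and sample 1 rested on 6 cells. Comparisons used samples 3, 5, 6, 7 and 8, each with at least 20 microglia and 20 comparator barcodes. They held 465 microglia with 5309099 UMIs, 4232 other barcodes and 374 Ms4a7 macrophages (defined below). Microglia had a median of 8882.5 UMIs and 2745.5 genes, against 8064 and 2343.5 in all other barcodes. Their antibody tags were fewer, at a median of 753 per barcode against 2322, and so were their hashtag counts, at 126.5 against 720. The leading hashtag held a median of 87.0% of the hashtag counts in microglia and 97.4% in other barcodes, so sample assignment was less clear-cut for microglia. Of 841 barcodes with at least 3 gate genes within the limits on genes, mitochondrial share and lower UMIs, 613 were left by the upper UMI limit and 506 by the hashtag limit. Doublets were treated through hashtag purity and the UMI limit alone.

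Hashtag sample 3 stood apart. In all, 60.5% of its 38 microglia had 5 or 6 gate genes, against 77.4 to 91.5% in samples 5, 6, 7 and 8. Border-associated macrophage markers summed to 1390 CPM in its microglia and to 224 to 506 CPM in those of the other samples. In all other barcodes they summed to 393 to 1007 CPM, so the microglia of sample 3 lay above that range. Over all microglia the 10 genes were each detected, with Ms4a7 leading. The 10 monocyte/macrophage markers, led by Lyz2, summed to 7708 CPM in sample 3 against 1936 to 3224 in the others, and to 8391 to 12787 in all other barcodes. Markers of other cells fell on both sides of the other barcodes. The 8 T cell genes summed to 48.8 to 303 CPM against 374 to 1608 in all other barcodes, and the 7 endothelial genes to 28.5 to 407 against 495 to 2561. The 5 B cell genes, led by Ighm, were at 121 to 217 CPM against 50.2 to 154, with a median of 176 against 72.6. The 6 oligodendrocyte genes were at 38.8 to 46.0 against 30.0 to 49.5, and the 8 plasmacytoid dendritic cell genes at 178 to 358 against 262 to 383. The carcinoma markers Krt7, Krt19 and Cldn4, the choroid plexus markers Folr1 and Clic6, and the globins Hba-a2, Hbb-bs and Hbb-bt were at 0. Neutrophil markers reached 2711 CPM in sample 5 against 68.7 to 104 elsewhere, and 81.2% of their UMIs lay in 1 barcode. At least 2 markers of another cell type were seen in 180 microglia, 92 of them for plasmacytoid dendritic cell markers led by Tcf4 and 69 for B cell markers led by Ighm. The part of these RNAs in the results was not tested beyond repeating the counts without sample 3 or without those 180 cells.

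On the surface, microglia carried fewer CD45 tags per cell and more CX3CR1 tags than macrophages, while no difference passed for CD45 as a share of all tags. The antibody tags were not used by the gate and come from a separate library, so they bear on the label of these cells. The comparator was a set of 432 Ms4a7 macrophages: barcodes with at most 1 gate gene, a UMI of Ms4a7, at least 2 of Apoe, C1qa, C1qb, Lyz2 and Cd74, and fewer than 3 of 6 monocyte genes. The median CD45 count was 158.5 on microglia (quartiles 104.5 and 373) and 1327.5 on Ms4a7 macrophages (815.25 and 1949.5). In samples 3, 5, 6, 7 and 8 the median CD45 count on microglia was 628, 164.5, 217, 120 and 103, so sample 3 was the highest by far. Below 362.4 tags, the 10th percentile of Ms4a7 macrophages, lay 74.3% of microglia, 81.7% of those with 5 or 6 gate genes, 43.3% of those with 3 or 4 and 19.5% of all other barcodes. By hashtag sample 1 to 8 the CD45-low share of microglia was 100, 57.9, 44.7, 68.8, 76.6, 70.4, 87.2 and 77.7%. As a share of all tags, however, CD45 had a log2 ratio to macrophages of 0.32, -0.22, -0.11, -0.20 and -0.47 in samples 3, 5, 6, 7 and 8, against -0.07, -1.59, -1.08, -2.08 and -2.03 per barcode. The share was lower in 4 of 5 samples (exact sign-flip p = 0.375, adjusted 0.414), and edgeR on the tag counts did not call it (-0.13 ± 0.13, adjusted p = 0.354). Microglia carried fewer tags in total, and the part of this in the low CD45 count was not tested. A low CD45 count per cell accompanied the gate in most cells of every sample but sample 3, and the remaining gated cells carried CD45 in the macrophage range.

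CX3CR1 was the tag that was higher on microglia than on Ms4a7 macrophages in every compared sample on both scales. Its mean count per microglial cell was 52.5, 41.2, 54.9, 42.8 and 34.9 in samples 3, 5, 6, 7 and 8. On Ms4a7 macrophages it was 23.4, 20.5, 38.0, 19.7 and 18.7, and on all other barcodes 18.2, 38.9, 17.6, 12.8 and 13.3. Microglia were above macrophages in 5 of 5 samples, although the lowest microglial value lay below the highest macrophage value. The log2 ratio to macrophages ran from 0.53 to 1.17 per barcode and from 1.5 to 3.00 as a share of all tags. With 5 samples the exact two-sided sign-flip test of the log2 share ratios cannot go below p = 0.0625, so 0 tags could pass, and CX3CR1 had p = 0.0625 (adjusted 0.105, and 0.133 against all other barcodes). No tag could have an unadjusted p under 0.05 either, and edgeR's quasi-likelihood test on the tag counts called 18 of 33 tags against macrophages and 14 of 33 against all other barcodes.

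Because microglia bound fewer antibodies in total, tags were compared both per barcode and as a share of all tags, and the scales gave different counts. Of 32 tags with a ratio in every sample, 4 (12.5%) were higher on microglia than on all other barcodes in 5 of 5 samples on both scales: CX3CR1, CD64, F4-80 and Siglec-H. Another 4 (12.5%) were lower on both: CD8a, CD3, CD38 and CD49d, the first pair being T cell proteins. On the share scale alone 11 tags (34.4%) were higher and 4 (12.5%) lower, and per barcode 4 (12.5%) were higher and 14 (43.8%) lower. CXCR4 and KLRG1 had no counts and CD335 had too few for a ratio in every sample. CD64 had a log2 ratio to all other barcodes of 1.01 to 1.56 per barcode, but its median was 4 tags on microglia and 4 on Ms4a7 macrophages. Siglec-H and TMEM119, whose transcripts are gate genes, had medians of 4 and 1 tags on microglia and of 4 and 2 on Ms4a7 macrophages. Against macrophages the TMEM119 tag was higher in 5 of 5 samples as a share and in 1 of 5 per barcode, at counts of a few tags per cell.

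Against Ms4a7 macrophages, CX3CR1 was the 1 tag (3.12%) higher in 5 of 5 samples on both scales, and I-A-I-E, CD11c and PD-L1 were the 3 (9.38%) that were lower on both. The edgeR test on tag counts called I-A-I-E and CD11c as lower but did not call PD-L1 (-0.43 ± 0.18, adjusted p = 0.061). As a share of all tags the PD-L1 log2 ratio ran from -0.78 to -0.07. On the share scale 16 tags (50%) were higher and 3 (9.38%) lower, while per barcode 1 (3.12%) was higher and 14 (43.8%) lower. Mean I-A-I-E counts were 210, 372, 198, 209 and 347 on microglia and 985, 1384, 823, 1843 and 1124 on macrophages in samples 3, 5, 6, 7 and 8. These counts per barcode did not overlap between the groups, whereas the I-A-I-E shares of all tags did. The log2 ratio ran from -3.14 to -1.70 per barcode and from -1.84 to -0.13 as a share. Cd74, which encodes the MHC class II invariant chain, was among the genes that defined the macrophages, and its part in this difference was not tested. Medians showed the same order, with 15.5 MHC class II tags on microglia and 480 on macrophages, 3 and 63.5 CD11c tags, and 1 and 21 PD-L1 tags. PD-L1 on microglia had medians of 9, 1, 2, 1 and 1 in samples 3, 5, 6, 7 and 8, and on macrophages of 38, 32, 17, 3 and 14.5. Sample 7 was the lowest among macrophages, and sample 3 the highest in both classes. CD44 had a median of 9 tags on microglia and 131.5 on macrophages, and its share was lower in 4 of 5 samples.

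**Figure D2:**
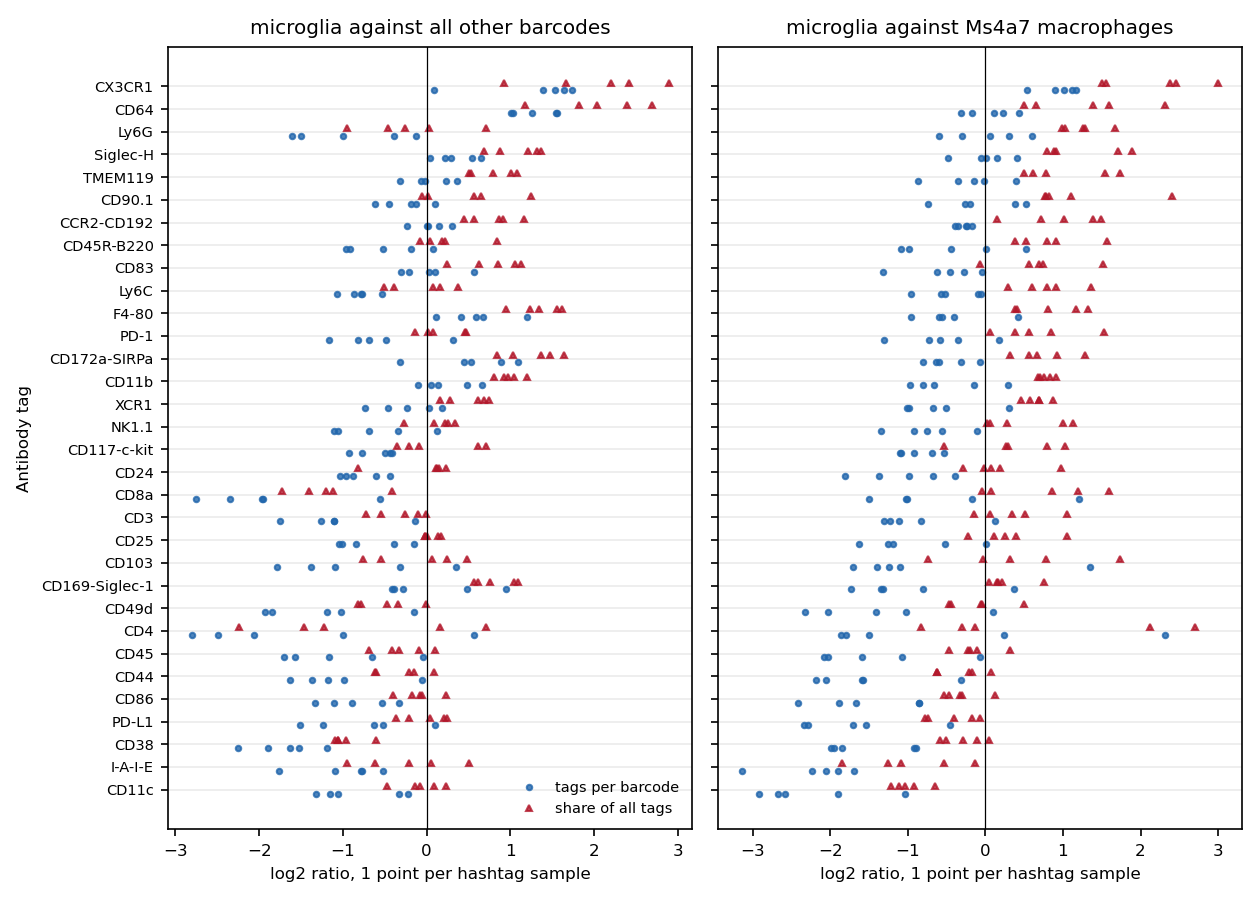
Log2 ratio of each of 32 antibody tags on microglia to all other barcodes (left) and to Ms4a7 macrophages (right), with 1 point per hashtag sample, per barcode (circles) and as a share of all tags (triangles). CX3CR1 lies to the right of 0 on both scales in both panels, and I-A-I-E, CD11c and PD-L1 lie to the left of 0 on both scales against macrophages.

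Cst3, C1qa and C1qb were among the most abundant RNAs of microglia. Counts were made at the 3' end of transcripts, so levels are in CPM and are compared between genes without division by length. Cst3, the secreted protease inhibitor cystatin C, was the most abundant gene outside mitochondrial and ribosomal protein genes, at 8652, 22543, 15354, 28706 and 24627 CPM in samples 3, 5, 6, 7 and 8. Sample 3 was the lowest and the range was wide. Tmsb4x, which buffers actin monomers, had a median of 18342 CPM, the nuclear RNA Malat1 16198, Actb 10430 and the ferritin chain Fth1 8384. The complement genes C1qa, C1qb and C1qc, which encode the chains of the first complement component, had medians of 6912, 6869 and 4531 CPM. The lysosomal cathepsin Ctss reached 5024, the transcription factor Jun 5234 and the chemokine Ccl4 4795. H3f3b, Tpt1 and Fau had medians of 5899, 5286 and 4396, and the 15 most abundant genes together made up a median of 12.8% of microglial UMIs. Ribosomal protein genes made up 15.5% and mitochondrial genes 2.39%.

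Microglia were then compared with all other barcodes, and with the Ms4a7 macrophages, on counts summed per hashtag sample and class (edgeR quasi-likelihood test with the hashtag sample as a block, Benjamini-Hochberg adjusted p under 0.05, n = 5 samples per class). Against all other barcodes 2226 of 10313 genes were higher (21.6%) and 2407 lower (23.3%), or 44.9% in either direction. Against macrophages 1590 of 7567 were higher (21%) and 1533 lower (20.3%), or 41.3% in either direction. Gate genes are left out of these counts, and against macrophages so are Ms4a7, Apoe, C1qa, C1qb, Lyz2, Cd74 and the 6 monocyte genes. The median log2 difference over all genes was -0.0062 and 0.0041. Every gene was read from the same cells and library as the gate genes, so these tests are not independent of the gate. Both comparisons also share the microglia, so they do not check each other. The share of all genes in each direction is the background for the list counts below, and a list share near it says nothing particular of the list. Log2 differences below are microglia minus the comparator, and CPM values are listed for samples 3, 5, 6, 7 and 8 in that order.

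**Figure D3:**
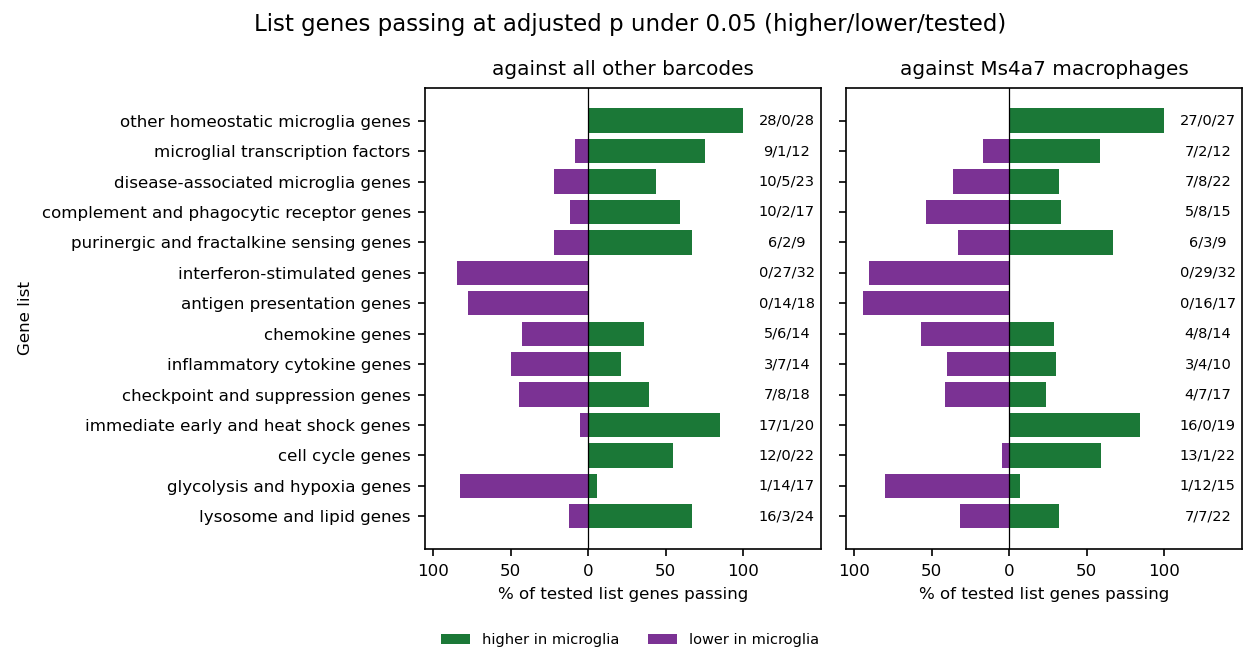
Share of the tested genes of 14 lists that were higher (green) or lower (purple) in microglia at an edgeR adjusted p under 0.05, against all other barcodes (left) and Ms4a7 macrophages (right), with counts as higher, lower and tested. Interferon-stimulated, antigen presentation and glycolysis and hypoxia genes lie on the lower side in both panels, and immediate early genes on the higher side.

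Homeostatic genes other than the gate genes followed the gate. All 28 tested were higher than in all other barcodes (median log2 difference 3.48) and all 27 tested were higher than in macrophages (3.65), beside 21.6 and 21% of all genes. The gate chose on genes of the same programme, so nothing is read from that count. Cx3cr1 was at 1233, 2134, 1559, 2497 and 2176 CPM in microglia, at 62.9 to 108 in all other barcodes and at 93.3 to 181 in macrophages. The groups did not overlap, and the log2 difference was 4.67 ± 0.25 (SE, edgeR adjusted p = 3.91e-07) and 3.85 ± 0.17 (1.18e-08). Crybb1, a beta-crystallin gene, was at 95.1, 247, 225, 334 and 375 CPM against 1.58 to 4.37 in others, a log2 difference of 6.74 ± 0.20 (edgeR adjusted p = 2.13e-08). Sample 3 was again the lowest. The genes with the largest rise against all others also included Slc2a5, a fructose transporter, with 441 UMIs in microglia and 3 in all other barcodes, a CPM ratio of 1084 (exact 95% interval 368 to 5275 for counting error). Against macrophages Sall3, a relative of Sall1, had 312 UMIs and 0, so it was at least 88.2-fold higher with a floor of 3 UMIs over the group. Lrrc3 had 385 and 1, a ratio of 327 (58.3 to 12936), and the calpain Capn3 had 314 and 3, a ratio of 88.8 (30.1 to 433).

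Other genes were named for the size of their difference. Ptgs1, which encodes cyclooxygenase 1, was at 169, 303, 323, 347 and 339 CPM in microglia and at 2.36 to 11 in all other barcodes (log2 difference 5.71 ± 0.26, edgeR adjusted p = 2.11e-07). Its inducible relative Ptgs2 went the other way, at 66.3 to 106 CPM against 216 to 326 (log2 difference -1.59, edgeR adjusted p = 5.62e-06). Ltc4s, the leukotriene C4 synthase and a member of the homeostatic list, was at 109 to 305 CPM against 3.76 to 8.91. Plxdc2 and Nav3, a plexin domain protein and a neuron navigator, were at 127 to 343 and 113 to 277 CPM against 0 to 3.85 and 0 to 2.41 in macrophages, with log2 differences of 7.39 and 6.97. The levels of these genes did not overlap between the classes they are compared in. They were named by their values in these data, so nothing is read from that. The genes with the largest fall against all others were those of cells the gate leaves out: Gzma (log2 difference -5.68) and Xcl1 (-5.28) of killer lymphocytes, Vwf (-5.19) and Slco1a4 (-5.31) of endothelium and Myh11 (-7.84) of mural cells. Myh11 was at 0.755 CPM in microglia of sample 5 and at 0 in the other compared samples, so the size of its difference rests on counts near the floor.

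**Figure D4:**
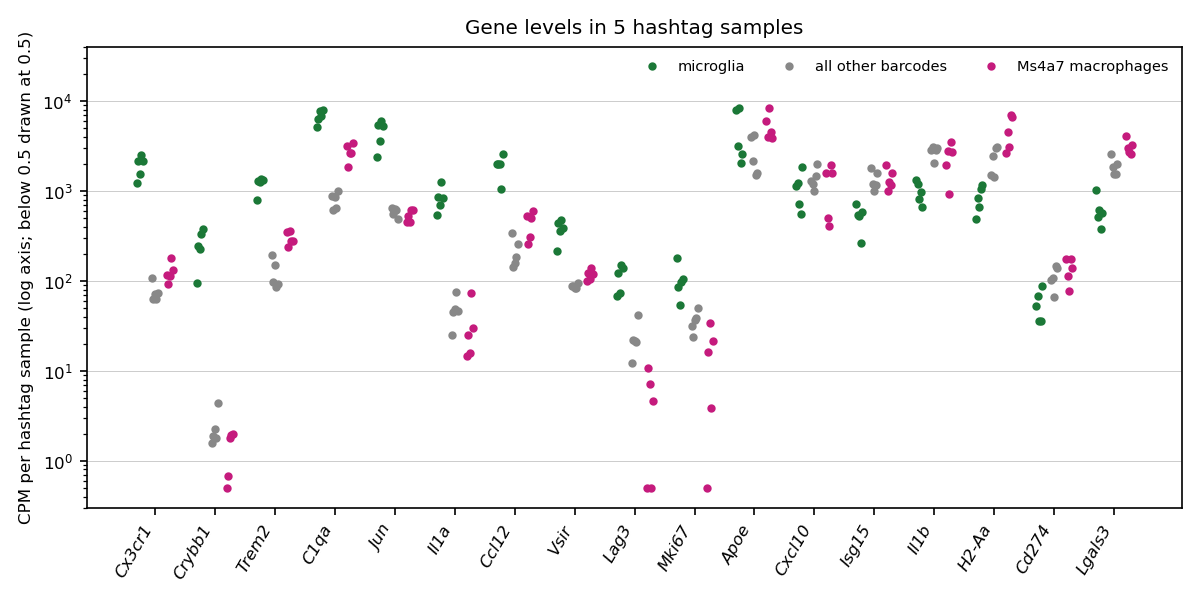
CPM of 17 genes in microglia (green), all other barcodes (grey) and Ms4a7 macrophages (pink), with 1 point per hashtag sample on a log axis and values below the axis floor drawn at the floor. Microglial Cx3cr1 lies between 1233 and 2497 CPM above every other point of that gene, while the Cxcl10 and Apoe points of the classes overlap.

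Among 12 transcription factors of microglia, 9 were higher and 1 lower than in all other barcodes (median log2 difference 0.72), and 7 were higher and 2 lower than in macrophages (0.74). Bhlhe41, a clock-related repressor, was at 84.5, 85.3, 84.9, 88.7 and 110 CPM in microglia against 2.10 to 7.10 in others and 1.32 to 14.2 in macrophages. That was a log2 difference of 4.76 ± 0.25 (edgeR adjusted p = 3.44e-07) and 4.25 ± 0.40 (5.24e-06). Cebpa, a myeloid lineage factor, differed by 2.45 and 1.23, and Mef2a and Runx1 by 1.67 and 1.22 against all others. Ets1, a lymphoid factor, was lower than in all other barcodes, and Spi1, which encodes PU.1, and Tfeb were lower than in macrophages.

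Purine and fractalkine sensing genes were mostly higher, with 6 of 9 up and 2 down against all other barcodes and 6 up and 3 down against macrophages. P2ry13, an ADP receptor, was at 65.2, 152, 109, 160 and 157 CPM against 4.92 to 7.69 in others (log2 difference 4.36 ± 0.22, edgeR adjusted p = 3.44e-07). Adora3, an adenosine receptor, was at 26.4 to 48.7 CPM against 2.27 to 4.47 and 0 to 5.77. Entpd1, the ectonucleotidase CD39 that breaks down extracellular ATP, was at 118 to 224 CPM against 65.3 to 90.7 and 48.0 to 109. In contrast Ptafr, the receptor for platelet-activating factor, was lower, at 72.2 to 92.8 CPM against 136 to 203 in macrophages. P2ry14 was also lower in both comparisons, and P2rx4 was lower than in macrophages.

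Complement and phagocytic receptor genes gave different counts against the 2 comparators. Against all other barcodes 10 of 17 complement and phagocytic receptor genes were higher and 2 lower, but against macrophages 5 of 15 were higher and 8 lower (median log2 difference 1.01 and -0.50). The macrophage count leaves out C1qa and C1qb, which were among the genes that defined the macrophages. Their median levels were 6912 and 6869 CPM in microglia and 2665 and 3033 in macrophages. C1qc was higher in both, at 3556 to 5347 CPM against 369 to 592 in others and 983 to 2094 in macrophages. The third complement component C3 was lower in both, at 38.8, 29.4, 22.5, 32.2 and 33.8 CPM against 84.4 to 143 and 81.7 to 202 (log2 difference -1.77 and -2.10). So within complement the first component and C3 lay on opposite sides. The integrin Itgam, which encodes CD11b, was higher in both (1.69 and 1.24), and the scavenger receptor Msr1 was lower in both (-0.82 and -1.56).

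Of the disease-associated microglial genes, a set first described in neurodegeneration, 10 of 23 were higher and 5 lower than in all other barcodes, and 7 of 22 were higher and 8 lower than in macrophages. The share lower than in all others was near the 23.3% of all genes. Trem2, a lipid-sensing receptor, was at 787, 1292, 1255, 1362 and 1339 CPM against 86.0 to 195 and 238 to 361 (log2 difference 3.36 ± 0.26 and 1.92 ± 0.18, edgeR adjusted p = 4.87e-06 and 4.22e-06). The protease genes Ctsd and Ctsl, the tetraspanin Cd9 and the growth factor Csf1 were higher in both comparisons. Lgals3, which encodes galectin 3, was at 1023, 518, 617, 377 and 573 CPM against 1537 to 2556 and 2604 to 4048, a log2 difference of -1.65 and -2.47. Gpnmb, Itgax and Fabp5 were also lower in both. Apoe was at 7988, 3199, 8460, 2057 and 2560 CPM in microglia, high in samples 3 and 6, and was higher than in all others by 0.76 ± 0.13 (edgeR adjusted p = 7.55e-04). In cells with at least 5 gate genes that difference was -0.43 ± 0.23 (adjusted p = 0.14), so the Apoe call was lost when the cells with 3 or 4 gate genes were counted among the other barcodes. Spp1, which encodes osteopontin, did not pass (-0.25 and -0.30), and its microglial level was highest in sample 6, at 1219 CPM against 151 to 356. It passed as lower than in macrophages without sample 6 (-0.94), and in cells with at least 5 gate genes it was lower, with -1.95 (adjusted p = 0.0039) and -1.84 (adjusted p = 0.035).

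Of the lysosome and lipid genes, 16 of 24 were higher and 3 lower than in all other barcodes, and 7 of 22 were higher and 7 lower than in macrophages. The cholesterol exporter Abca1 was at 134, 144, 137, 129 and 124 CPM against 21.6 to 50.8 and 28.4 to 74.7 (log2 difference 2.03 and 1.46, edgeR adjusted p = 2.74e-06 and 4.01e-05). The protease Lgmn differed by 2.02 and 0.66. Plin2, which coats lipid droplets, was lower, at 123 to 257 CPM against 198 to 366 and 337 to 651 (-0.70 and -1.69). Ctss, a cathepsin of antigen processing, was higher than in all others but was at 3903 to 5217 CPM in microglia and 3478 to 5028 in macrophages, which overlapped.

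Interferon-stimulated genes were lower in microglia. Of 32 genes, 0 were higher and 27 lower than in all other barcodes (median log2 difference -0.78), and 0 were higher and 29 lower than in macrophages (-0.90), beside 23.3 and 20.3% of all genes lower. Isg15, a ubiquitin-like protein induced by interferon, was at 712, 543, 530, 264 and 586 CPM in microglia. All other barcodes were at 1812, 1200, 1007, 1179 and 1587, and macrophages at 1968, 1010, 1256, 1156 and 1589. Microglia did not overlap with either class, and the log2 difference was -1.38 ± 0.17 (edgeR adjusted p = 9.90e-05) and -1.51 ± 0.16 (1.79e-05). The GTPase Ifi47 differed by -1.85 and -1.74, the interferon regulator Irf7 by -1.26 and -1.70 and the antiviral membrane protein Ifitm3 by -1.23 and -1.32. Ifit1, an RNA-binding antiviral protein, was at 159, 83.8, 49.7, 59.9 and 101 CPM against 233 to 351 and 138 to 436. With cells of at least 5 gate genes 29 of 32 were lower in either comparison, and where the leading hashtag had to hold 90% of the counts 19 and 12 were lower and 1 and 0 higher. Of all genes 1374 of 9545 and 622 of 5529 were lower under that hashtag limit.

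Genes of the Ifit cluster on chromosome 19 were printed because they are members of this lower list that carry a textbook interferon response element in the stretch before their start. RefSeq promoter windows of build GRCm38.p6 matched 25 of the 32 genes, and a perfect match to the interferon-stimulated response element core, searched on both strands, was found in 9 of them. Over all windows of the same length 76 of 32851 held it, or 0.231%, as did B2m among 13 antigen presentation genes with a window, 0 of 19 homeostatic genes and 0 of 17 immediate early genes. The lines give the 250 bases before the start, 5′ to 3′ on the plus strand, with the match in capitals as its reverse complement. They are Ifit1 at chr19:34640639-34640888, Ifit3 at chr19:34583279-34583528 and Ifit3b at chr19:34607707-34607956, with the match starting 85, 122 and 154 bases before the gene start.
Ifit1: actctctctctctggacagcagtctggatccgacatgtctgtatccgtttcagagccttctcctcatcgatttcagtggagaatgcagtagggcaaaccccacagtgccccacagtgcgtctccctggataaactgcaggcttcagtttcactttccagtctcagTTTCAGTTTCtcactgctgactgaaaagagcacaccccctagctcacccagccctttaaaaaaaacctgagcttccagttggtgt
Ifit3: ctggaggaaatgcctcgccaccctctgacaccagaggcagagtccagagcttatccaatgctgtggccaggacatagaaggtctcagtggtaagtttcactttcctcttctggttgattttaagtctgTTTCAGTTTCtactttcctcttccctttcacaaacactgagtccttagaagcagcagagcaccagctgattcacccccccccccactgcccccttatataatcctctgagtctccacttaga
Ifit3b: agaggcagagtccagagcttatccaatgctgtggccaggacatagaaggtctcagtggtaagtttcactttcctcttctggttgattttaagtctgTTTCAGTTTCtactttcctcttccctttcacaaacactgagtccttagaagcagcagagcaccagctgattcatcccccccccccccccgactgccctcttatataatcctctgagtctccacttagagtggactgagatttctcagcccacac
Ifit3 and Ifit3b are near copies of each other, so reads may be split between them, and Ifit3b was at 38.8, 39.2, 33.8, 17.7 and 35.8 CPM in microglia against 65.5 to 134 in others and 51.9 to 147 in macrophages. All 3 genes were lower in microglia in both comparisons. A match describes letters in a window and says nothing of whether a factor binds there. Other forms of the element were not searched for, so the stretches in small letters may hold them.

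Antigen presentation genes were lower too, with 0 higher and 14 of 18 lower than in all other barcodes and 0 higher and 16 of 17 lower than in macrophages (median log2 difference -0.68 and -0.84). Cd74, a gene of this list, was among those that defined the macrophages. It is left out of the macrophage count, but the part of that choice in the other class II genes was not tested. The MHC class II chain gene H2-Aa was at 491, 834, 662, 1065 and 1179 CPM in microglia, at 1436 to 3099 in others and at 2628 to 7011 in macrophages. The log2 difference was -1.42 ± 0.12 (edgeR adjusted p = 6.97e-06) and -2.54 ± 0.12 (1.94e-08), and the groups did not overlap. H2-Eb1 differed by -1.50 and -2.74 and the invariant chain Cd74 by -1.37 against all others. The transporter genes Tap1 and Tap2 and the immunoproteasome genes Psmb8 and Psmb9 of the class I pathway were lower in both comparisons. Both the H2-Aa transcript and the I-A-I-E tag were lower than in macrophages in 5 of 5 samples. Against all other barcodes the I-A-I-E tag was higher in 2 of 5 samples as a share and in 0 of 5 per barcode. Where the leading hashtag had to hold 90% of the counts, 8 of 18 genes were lower than in all other barcodes, beside 1374 of 9545 of all genes.

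Among chemokine genes some members were higher and others lower. Ccl3, Ccl4 and Ccl12, which draw in monocytes and lymphocytes, were higher in both comparisons, together with Ccl2. Ccl12 was at 1996, 2000, 2023, 1066 and 2589 CPM against 142 to 337 and 256 to 602 (log2 difference 3.19 ± 0.22 and 2.08 ± 0.23, edgeR adjusted p = 2.16e-06 and 2.14e-05). Ccl3 differed by 2.48 and 1.97 and Ccl4 by 1.77 and 1.42. Ccl5, a chemokine of lymphocytes and activated myeloid cells, was lower, at 288 to 660 CPM against 999 to 3615 and 882 to 2682 (-2.43 and -2.03). Cxcl16 was at 213 to 514 CPM against 249 to 420 in others and 597 to 989 in macrophages, so it was lower than in macrophages (-1.57) and did not pass against all others (-0.07). Counted over the list, 5 of 14 were higher and 6 lower against all others and 4 higher and 8 lower against macrophages, beside 21.6 and 23.3%, and 21 and 20.3%, of all genes.

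Cxcl10, the chemokine that the series title names, is an interferon-induced attractant of T cells. In microglia it was at 1133, 1236, 717, 559 and 1861 CPM. In all other barcodes it was at 1301, 1194, 1004, 1468 and 2014, and in macrophages at 1572, 506, 407, 1944 and 1591. The classes overlapped, and neither difference passed, at -0.41 ± 0.19 (edgeR adjusted p = 0.103, lower in 4 of 5 samples) and -0.05 ± 0.35 (adjusted p = 0.929, lower in 2 of 5). Samples 7 and 8 were the lowest and highest for microglia. With cells of at least 5 gate genes the difference to all other barcodes was -0.55 (edgeR adjusted p = 0.044), so this call depends on which cells are counted.

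Among cytokines, Il1a, the alarmin interleukin 1 alpha, was at 539, 860, 704, 1251 and 841 CPM in microglia against 25.3 to 75 in others and 14.5 to 73.1 in macrophages. The log2 difference was 4.16 ± 0.12 (edgeR adjusted p = 2.13e-08) and 4.75 ± 0.20 (8.07e-09). Il1b, the secreted partner of Il1a at the same receptor, was lower, at 1339, 1183, 808, 967 and 666 CPM against 2040 to 3104 and 938 to 3490 (-1.50 and -1.26). The receptor antagonist Il1rn was lower as well (-1.28 and -1.69). Within the interleukin 1 family the genes thus lay on both sides. Tnf was higher by 2.22 and 1.70 and the macrophage growth factor Csf1 by 2.11 and 2.82. In all, 3 of 14 cytokine genes were higher and 7 lower against all others, and 3 of 10 higher and 4 lower against macrophages, beside 21.6 and 23.3%, and 21 and 20.3%, of all genes. The share higher than in all others was near that of all genes.

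Both checkpoint genes targeted by the treatment were measured as transcripts. Vsir, which encodes VISTA, an inhibitory receptor of myeloid cells, lies at chr10:60346851-60430294. It was at 217, 439, 359, 475 and 385 CPM in microglia, at 87.3, 88.3, 83.1, 82.6 and 94.4 in all other barcodes and at 98.9, 123, 105, 140 and 120 in macrophages. Microglia were higher in 5 of 5 samples with no overlap, by a log2 difference of 2.09 ± 0.16 (edgeR adjusted p = 4.72e-06) and 1.58 ± 0.13 (2.43e-06). Cd274, which encodes PD-L1, lies at chr19:29362107-29388095 and was lower, at 52.8, 68.7, 35.8, 35.5 and 87.4 CPM against 66.5 to 145 and 76.4 to 177. The values overlapped, and the difference was -0.99 ± 0.18 (edgeR adjusted p = 1.41e-03) and -1.30 ± 0.22 (6.11e-04), lower in 5 of 5 samples. The PD-L1 tag was likewise lower on microglia than on macrophages in 5 of 5 samples, but edgeR on the tag counts did not call it (adjusted p = 0.061). Against all other barcodes, however, the PD-L1 tag was higher in 3 of 5 samples as a share and in 1 of 5 per barcode.

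Other checkpoint and suppression genes moved in both directions, 7 of 18 higher and 8 lower against all others and 4 of 17 higher and 7 lower against macrophages. The share higher than in macrophages was near the 21% of all genes. Lag3, known best as an inhibitory receptor of T cells, was at 68.7, 121, 73.6, 149 and 141 CPM in microglia against 12.4 to 41.9 in others and 0 to 10.7 in macrophages (log2 difference 2.24 ± 0.17, edgeR adjusted p = 4.78e-06, and 4.28 ± 0.34, 1.79e-06). Havcr2, Sirpa and Cd86 were higher than in all other barcodes, and Lgals9 and Entpd1 were higher in both comparisons. The costimulatory receptor Cd40 was lower (-1.35 and -2.07), as were Pdcd1lg2, Cd200r1 and Il4i1 in both comparisons.

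Immediate early and heat shock genes, which respond within minutes to stimulation and to tissue dissociation, were higher in microglia. Of 20 genes, 17 were higher and 1, Nr4a1, lower than in all other barcodes, and 16 of 19 were higher and 0 lower than in macrophages (median log2 difference 1.49 and 1.67). Jun was at 2381, 5369, 3648, 6086 and 5234 CPM against 495 to 645 and 453 to 617, a log2 difference of 2.91 ± 0.22 (edgeR adjusted p = 3.76e-06) and 2.96 ± 0.15 (3.66e-08). Egr1 differed by 2.73 and 2.56, Atf3 by 2.55 and 1.91, Ier2 by 1.69 and 1.89 and Btg2 by 1.55 and 1.69. The list summed to 14875 CPM in barcodes with 3 gate genes and to 38263 in those with all 6.

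Cell cycle genes were partly higher, with 12 of 22 higher and 0 lower than in all other barcodes and 13 higher and 1, H2afz, lower than in macrophages (median log2 difference 0.55 and 1.04). Of all genes 21.6 and 21% were higher. Mki67, the proliferation antigen Ki-67, was at 178, 85.3, 53.7, 96.5 and 105 CPM against 23.9 to 50.4 in others and 0 to 33.7 in macrophages (1.45 ± 0.23, edgeR adjusted p = 5.07e-04, and 2.45 ± 0.42, 6.27e-04). Ccnb1 differed by 1.36 and 2.46 and Stmn1 by 1.13 and 1.94. Sample 3 was highest for these 3 genes. Without it 8 of 22 genes were higher and 2 lower than in all other barcodes, and 11 higher and 1 lower than in macrophages. Without the 180 cells that held markers of another type, 5 of 22 were higher and 2 lower than in all other barcodes. In that setting 2040 of 10773 genes were higher, so the share of cell cycle genes higher was near that of all genes. Against macrophages 9 of 19 were higher and 1 lower in that setting.

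Glycolysis and hypoxia genes were lower, with 1 of 17 higher and 14 lower than in all other barcodes and 1 of 15 higher and 12 lower than in macrophages (median log2 difference -0.65 and -0.77). Hk2, a hexokinase, was the gene that was higher, at 93.4, 121, 117, 134 and 143 CPM against 33.9 to 55.3 and 41.0 to 72.3 (1.56 ± 0.13, edgeR adjusted p = 8.57e-06, and 1.12 ± 0.18, 3.30e-04). The phosphofructokinase Pfkp was at 22.9 to 37.8 CPM against 70.7 to 150 and 61.1 to 109 (-1.82 and -1.61). The angiogenic factor Vegfa was at 2.65 to 12.8 CPM against 25 to 73.0 and 14.2 to 44.2 (-2.49 and -1.87), and the glucose transporter Slc2a1 at 26.5 to 61.0 against 105 to 480 in others (-2.65). Slc2a1 is also a gene of brain endothelium, which is among the other barcodes. With the 90% hashtag limit 9 of 17 genes were lower than in all other barcodes and 7 of 15 lower than in macrophages. Of all genes 1374 of 9545 and 622 of 5529 were lower in that setting.

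Among themselves, microglia were not uniform. After thinning to 1000 UMIs per cell, 2956 genes had a mean of at least 0.05 UMIs, with a median variance over mean of 1.04, and 86 exceeded 2. S100a9 (82.9) and S100a8 (47.4) led, and their UMIs lay mostly in the single barcode of sample 5 already named. Apoe followed with 29.1: 40.3% of cells had a UMI and 75% of its UMIs lay in the top 51 of the 506 cells. Cst3 had 14.3, Cd74 12.7, Spp1 12.1 and Ccl4 9.18, and Spp1 was seen in 9.49% of cells while Ccl4 was seen in 66.2%. Lyz2, H2-Ab1 and Ccl5 had 8.35, 8.30 and 8.29, and the non-coding RNA Malat1 and the gene model Gm42418 had 9.42 and 20.1. In cells with 5 or 6 gate genes Apoe had 21.8, Gm42418 7.04, Spp1 5.63, Lyz2 5.37 and Ccl5 5.91. Cst3 had 11.7 there, Cd74 10.1, Ccl4 9.08, H2-Ab1 7.90 and Malat1 7.68, while S100a9 stayed at 82.9 and S100a8 at 47.4. Part of the spread of several genes thus lay in the cells with 3 or 4 gate genes.

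Gene lists spread widely between cells as well. Per 1000 UMIs the homeostatic list had a median of 44 UMIs (quartiles 25 and 68), the immediate early list 38 (22 and 56), the chemokine list 9 (3 and 17, up to 98), the antigen presentation list 9 (5 and 14) and the interferon-stimulated list 3 (1 and 6). The sample medians of the homeostatic list were 16, 50.5, 37, 62.5 and 54.5 in samples 3, 5, 6, 7 and 8, and samples 3 and 7 lay at opposite ends of it. Across the 506 cells the homeostatic and interferon-stimulated lists had a Pearson correlation of -0.45 (-0.36 in the 409 cells with 5 or 6 gate genes), and the interferon-stimulated and chemokine lists one of 0.35 (0.45). The homeostatic list correlated at 0.41 with both the immediate early list (0.27) and the complement list (0.38). These are descriptions across cells that share libraries and a fixed total of 1000 UMIs, with no test.

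**Figure D5:**
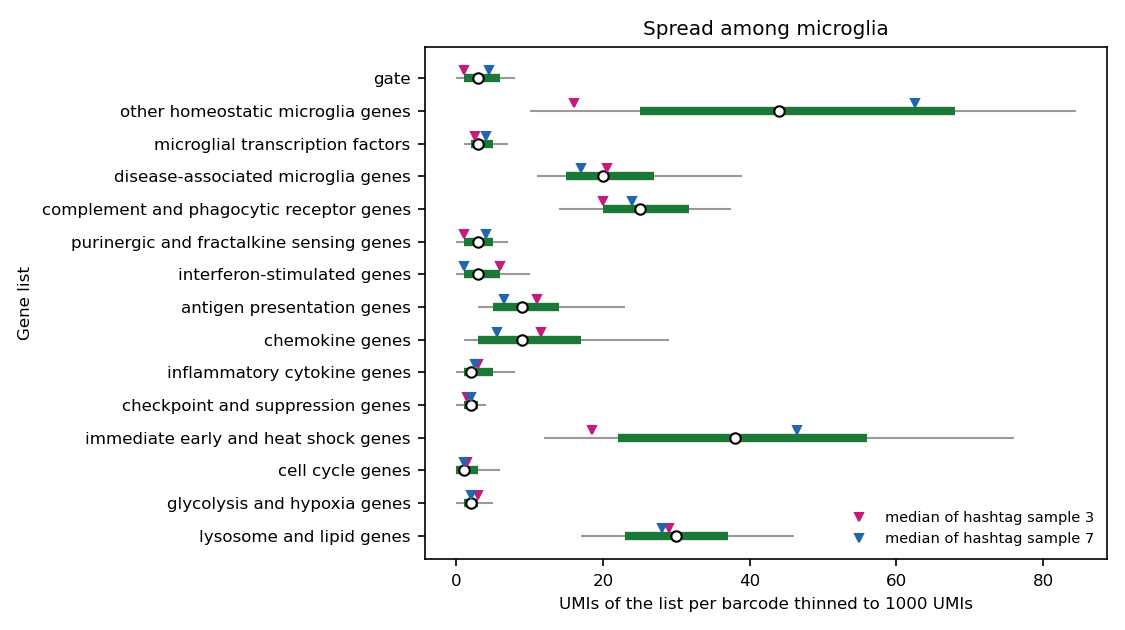
UMIs of each gene list per microglial cell thinned to 1000 UMIs, as the median (circle), quartiles (thick line) and 10th to 90th percentiles (thin line) of 506 cells, with the medians of hashtag samples 3 and 7 as triangles. The homeostatic and immediate early lists are the widest, and sample 3 lies below sample 7 in both (16 against 62.5 UMIs for the homeostatic list).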

How the data were processed

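The authors deposited unnormalized UMI counts for transcripts, antibodies and hashtags. The submitters' processing notes list Cell Ranger 3.1, Seurat 3.1.1 and mm10, and no source used here names the gene annotation. The members and the gene lists were chosen with earlier results of these data known. Within each hashtag sample, the counts of a class were added up where both classes held at least 20 barcodes, and then tested in R 4.3.3 with edgeR 4.0.16 (TMM, filterByExpr), a step that was tested on simulated data, with DESeq2 1.42.0 as an alternative. Python 3.11.15, numpy 2.4.6, scipy 1.17.1 and pandas 2.3.3 did the rest. Classes of 1 hashtag sample come from the same stained suspension. The deviations of the same-numbered classes from their class means correlated at -0.047 to 0.222 against all other barcodes and at -0.0031 to 0.176 against macrophages. Named genes were the gate genes, the 15 most abundant, the 8 largest rises and falls per comparison that reached 50 CPM and moved the same way in every sample, the 12 most variable, up to 4 of each list by p, and Vsir, Cd274 and Cxcl10. List members named without values, the tags, the promoter examples and comparisons within families were chosen after their values were seen. In the lists, 2 genes had no row in the matrix. Of the genes the rule names, 1 is not reported here. RefSeq tables gave coordinates and promoters. Alternatives changed the gate, its filters, the thinning, the normalization, the low-count filter, the block and the samples.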

Additional observations from a re-analysis of the deposited data

Results flagged for a closer look

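Of 147 microglial values examined across hashtag samples 3, 5, 6, 7 and 8, 12 had 1 sample lying far from the other 4, and chance alone marks about 1 group in 20. Sample 3, which held the fewest microglia and the most macrophage RNA, gave 7 of them. In sample 3 Lrrc3 was at 45.8 CPM against 72.1 to 77.6 in the others, Ptgs1 at 169 against 303 to 347, and Trem2 at 787 against 1255 to 1362. The macrophage lysozyme Lyz2 was at 5226 CPM there against 930 to 1890, and the cell cycle list summed to 4328 CPM against 2656 to 3013. The CD44 tag averaged 133 per cell in sample 3 against 37.0 to 62.0, and the CD103 tag 7 against 1.12 to 2.69.

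Sample 8 had Bhlhe41 at 110 CPM against 84.5 to 88.7. Sample 6 had Spp1 at 1219 CPM against 151 to 356, which places most osteopontin RNA of microglia in 1 sample. Sample 7 had Gzma at 56.6 CPM against 2.65 to 17.6. Sample 5 was the only sample with Xcl1, at 18.9 CPM, and with Myh11, at 0.755 CPM, while the other 4 samples had 0 of either. With the other 4 at 0 any value above 0 is flagged, so these flags say nothing of its size.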

How the results depend on the processing

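Under every setting that tested them, 78 of 90 named genes kept their direction and side of the threshold against all other barcodes. Against Ms4a7 macrophages 76 of 81 did. A gene that a setting did not test counts as kept there, and after thinning only 79 of the 90 and 53 of the 81 were tested. Most of these genes were named by their values in these data. The gene count against all others fell from 4633 to 2664 (1290 higher, 1374 lower) with a leading hashtag of at least 90% and to 1511 (738 and 773) after thinning to 1000 UMIs, and against macrophages from 3123 to 1398 (776 and 622) and 605 (318 and 287), where fewer barcodes or UMIs enter. DESeq2 called 2042 (1038 and 1004) against macrophages. With 1 sample left out, the counts ran from 3537 to 4942 against all others (higher 1692 to 2304, lower 1845 to 2638) and from 2127 to 3408 against macrophages (higher 1147 to 1703, lower 980 to 1705, the lowest without sample 8). Without the replicate block 4794 and 3135 genes were called. For tags the test called 0 in both comparisons. Without the replicate block it called 13 in each, and edgeR on tag counts called 14 and 18. Against all others 11 tags were higher and 4 lower in every sample. Per barcode these were 4 and 14, and the number lower was 2 without the largest tag or with at least 2 gate genes and 9 for each barcode's own share. Against macrophages 16 were higher and 3 lower. Per barcode these were 1 and 14, and the number higher was 10 with at least 2 gate genes. With the 90% hashtag limit it was 10, and 1 was lower. The number lower was 7 for each barcode's own share, 5 with at least 5 gate genes, 6 without sample 3 and 5 without sample 6. These tag counts ask for the same direction in all 5 samples in the main setting and in 4 with 1 sample left out. With at least 2 gate genes they ask for it in 7 samples against all others and in 6 against macrophages. Counts over unlike numbers of samples are not directly comparable. The gate held 12.3% of barcodes with at least 2 genes, 8.56% with 4, 7.74% with 5 (chosen after seeing the data), 4.27% with the 90% hashtag limit and 4.60% after thinning. Genes near 0 changed sign. Against all others Spp1 (-0.25) was at 0.51 with at least 2 genes, 0.29 with the 90% limit and 0.17 without the replicate block. It was at 0.073 without barcodes holding markers of another type and at 0.13 without sample 3. Sample 3 is also dropped by a minimum of 40 cells and when those barcodes are removed. With 1 sample left out Spp1 ran from -0.73 to 0.13. Cxcl16 (-0.07) was at 0.57 with at least 2 genes, 0.29 with the 90% limit, 0.23 after thinning and 0.28 without comparator barcodes holding 1 or 2 gate genes, and at 0.013 and 0.048 without samples 5 and 8. Apoe (0.76) was at -0.43 with at least 5 genes. Against macrophages Spp1 (-0.30) was at 0.29 with at least 2 genes, 0.34 with the 90% limit and 0.15 without the block. Cxcl10 (-0.05) was at 0.037 with the 90% limit, at 0.084 without sample 3 and ran from -0.38 to 0.39 (without sample 7) with 1 sample left out. Against all others Cxcl10 (-0.41) passed as lower, at -0.46 to -0.80, with at least 2 or 5 gate genes, at most 20000 UMIs, thinning, no filter on low counts or without barcodes holding markers of another type. With the 90% limit the genes lower than in macrophages fell to 3 of 13 tested in the checkpoint list. They fell to 5 of 14 in the chemokine list and to 5 of 20 in the disease-associated list. Of all genes 622 of 5529 were lower than in macrophages in that setting, against 1533 of 7567 in the main one. Beyond the barcodes and UMIs left, the cause was not tested. Microglia with few hashtag counts make sample assignment, and so every comparison within hashtag samples, less certain.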

Other observations

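The gate also left differences between microglia and macrophages in genes outside the lists. Nr1h3, which encodes the sterol-sensing receptor LXR alpha, was at 42.3, 24.1, 17.9, 17.7 and 8.94 CPM in microglia of samples 3, 5, 6, 7 and 8 and at 100 to 188 in Ms4a7 macrophages (log2 difference -2.67 ± 0.19, edgeR adjusted p = 7.01e-07, lower in 5 of 5 samples). The exporter it is known to induce, Abca1, was higher in microglia, as described above. Slamf7, a receptor of activated leukocytes, was at 21.1 to 102 CPM against 226 to 497 (-2.58), and Slco2b1, an organic anion transporter, at 68.7 to 234 CPM against 0 to 2.69 (6.93). Among them, Nr1h3 and Slamf7 were highest in sample 3, the sample with the most macrophage RNA, and Slco2b1 was lowest there.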
